A study of Mus musculus with 27 samples.

Results

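The meninges of mice were compared 0.5 h after ultraviolet B light (UVB, 311 nm, 2 mW) had been shone on the interparietal bone, a bone at the rear of the skullcap, with the meninges of untreated mice. The comparison used 6 of the 27 libraries of the series: the 3 meninges libraries at 0.5 h and the 3 meninges libraries of untreated mice, with messenger RNA counted for all genes. Another 3 meninges libraries, taken at 24 h, entered the same fit, and the brain and the skull of irradiated and untreated mice gave the values set beside the meninges. The meninges were scraped off the rinsed skullcap before freezing. The labels give no strain, genotype, sex or age, and do not say whether the untreated mice were handled like the irradiated ones, at what clock hour each group was taken, or whether replicates were separate animals. The p-values therefore measure only the spread between these samples, which may be technical, and the part of handling or clock hour in any difference was not tested. The series' title names immunity at the brain's borders under cranial light as its subject.

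The meninges are layers of fibroblasts, vessels, nerves and resident immune cells between bone and brain. Cells that are stimulated, mechanically disturbed or exposed to stress hormones switch on early response genes within minutes. Among these are the AP-1 and small Maf transcription factors, the NR4A nuclear receptors, the clock gene Per1 and feedback inhibitors of NF-kB and cytokine signalling, and their short-lived transcripts are lost soon after the stimulus ends. UVB damages DNA directly, and cells repair the lesions by nucleotide excision repair or copy past them with translesion polymerases.

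Totals of the 6 libraries ran from 14961038 to 18174269 counts. The tissue was checked against markers. Zic1, a transcription factor of meningeal fibroblasts, ran from 225 to 326 CPM (counts of a gene when its library total is scaled to 1000000) in the 6 meninges libraries, against 32.7 to 56.9 CPM in the 6 brain and 86.5 to 135 CPM in the 6 skull libraries at the same times. Zic4, Foxc2 and Slc6a13 were also higher in meninges than in skull. Other fibroblast markers did not set meninges apart from skull. The collagen gene Col1a1 ran from 19815 to 34077 CPM in meninges and from 49561 to 79699 CPM in skull. The summed level of 20 meningeal fibroblast markers, Col1a1 among them, was higher in every skull library than in any meninges library. Bone and brain transcripts were present too: the osteoblast gene Bglap ran from 475 to 744 CPM in meninges and from 698 to 1488 CPM in skull, and the neuronal gene Snap25 from 178 to 308 CPM in meninges and from 1864 to 1972 CPM in brain. Single libraries stood apart in tissue carried along. The summed level of 10 skeletal muscle genes was 1278, 55.5 and 2778 CPM in the 0.5 h libraries and 55.2, 5193 and 36.3 CPM in the untreated ones, and that of 9 choroid plexus genes was 505 CPM in untreated replicate 1 and 5687 to 9958 CPM in the other 5. None of the genes of either list passed the edgeR quasi-likelihood test, by DESeq2 or limma-voom, or at an unadjusted p under 0.05. In bulk tissue, fewer cells of a type and less RNA per cell cannot be told apart.

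Of 18542 genes tested, 162 (0.874%) differed between meninges at 0.5 h and untreated meninges (edgeR quasi-likelihood F test, Benjamini-Hochberg adjusted p under 0.05). Of these, 68 (0.367%) were higher at 0.5 h and 94 (0.507%) were lower. The genes that fell were the better expressed ones, with a median of 59.7 CPM, against 22 CPM for the genes that rose and 18.2 CPM for all tested genes. Of the genes that fell, 33 did so by more than 2-fold, and of those that rose, 14. The median log2 fold change of all tested genes was 0.01, and 51.5% of them had a positive one. In all 162 genes the 3 libraries of one group lay above the 3 of the other, which held for 20.8% of tested genes. The number of calls rested on the small groups: leaving out 0.5 h replicate 2 left 17 genes, 0.5 h replicate 1 left 25, 0.5 h replicate 3 left 106, and untreated replicates 1, 2 and 3 left 44, 55 and 78. A call is said below to survive where it passed in each of the 9 fits that leave out 1 meninges library, those of 24 h included. Of the 94 genes that fell, 30 stood in 10 lists of early response, stress hormone, clock and inflammatory genes, or 31.9%, against 1.02% of all tested genes. Lists and members were chosen with earlier results of these data known, and which lists to pool was decided after their counts were seen. Both shares are therefore a description and not a test.

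**Figure D1:**
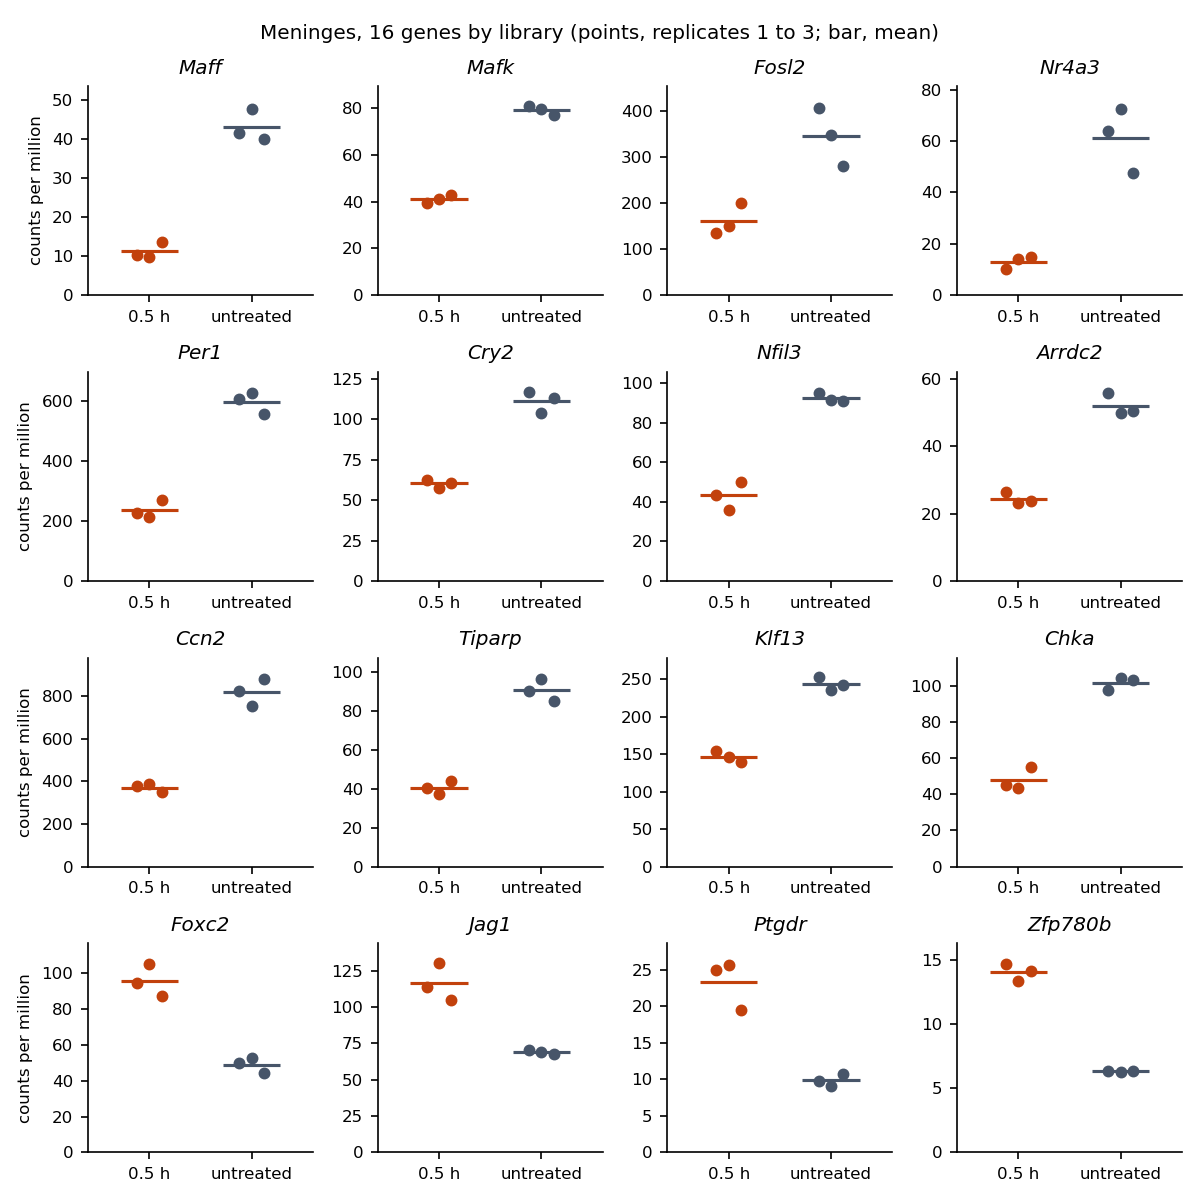
CPM (vertical axes, from 0) of 16 genes in the 3 meninges libraries at 0.5 h (orange, left) and the 3 untreated ones (grey, right), with points for replicates 1 to 3 and a bar for the mean. The 12 genes of the upper 3 rows were lower and the 4 of the bottom row higher at 0.5 h, and in no panel do the groups overlap.

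The factors of the AP-1 and small Maf family, which bind DNA as pairs and drive early response programmes, were partly lower at 0.5 h. Of the 14 tested, 5 (35.7%) fell, against 0.507% of all tested genes. A negative log2 fold change was found in 12 of 14, with a median of -0.62, while 51.5% of all tested genes had a positive one. Maff, a small Maf protein induced by stress and growth signals, had 10.2, 9.68 and 13.7 CPM at 0.5 h, against 41.5, 47.7 and 39.9 CPM in untreated meninges. The groups lay far apart, and Maff fell with a log2 fold change of -1.94 (SE 0.16, adjusted p = 0.0015). Its relative Mafk had 39.6, 41.3 and 42.9 CPM at 0.5 h and 80.8, 79.6 and 77 CPM in untreated meninges (log2 fold change -0.94, SE 0.11, adjusted p = 0.00469). Both calls survived each left-out library. Atf3, Fosl2 and Jun fell as well, with log2 fold changes of -1.33, -1.09 and -0.69, and these calls were lost in at least 5 of the 9 fits with a library left out. With 1 library left out, 2 to 5 members of the list passed. Fos itself did not separate. It had 219, 319 and 230 CPM at 0.5 h, against 192, 230 and 266 CPM in untreated meninges, so the groups overlapped (log2 fold change 0.16, SE 0.57, adjusted p = 0.956). Egr1, an early response factor of another family, also overlapped, with 515, 959 and 571 CPM at 0.5 h and 466, 618 and 713 CPM in untreated meninges (log2 fold change 0.19, SE 0.56). Fos and Egr1 were named after their values were seen, and both turn negative without 0.5 h replicate 2, to -0.04 and -0.16. Among the 25 tested Egr, NR4A and other early response genes, 2 fell (8%, against 0.507% of all tested genes) and the median was -0.32. Nr4a3, an orphan nuclear receptor induced by cyclic AMP and calcium, had 10, 14.1 and 14.8 CPM at 0.5 h, against 63.8, 72.3 and 47.5 CPM in untreated meninges. It fell by 2.24 on the log2 scale (SE 0.24, adjusted p = 0.00551), a call lost only without 0.5 h replicate 2 (adjusted p = 0.056). Apold1, an endothelial early response gene, was the other (log2 fold change -1.18, SE 0.2, adjusted p = 0.0354).

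The sequences just before the start sites of 4 genes that fell are shown because their promoters hold letters by which early response genes are known. The windows, from RefSeq on GRCm38.p6, run from 250 bases before to 50 bases after a start, and the genes lie on the plus strand. Capitals mark the letters TGACG or TGACGTCA (the core and the full site of the cAMP response element, bound by CREB and ATF proteins), CACGTG (the E-box, bound by CLOCK and BMAL1 among others), TGANTCA (the AP-1 site) and the NF-kB site, each searched on both strands. A full cAMP response element holds 2 cores, which overlap, and a core on the minus strand reads CGTCA.
Maff, chr15:79347270-79347569: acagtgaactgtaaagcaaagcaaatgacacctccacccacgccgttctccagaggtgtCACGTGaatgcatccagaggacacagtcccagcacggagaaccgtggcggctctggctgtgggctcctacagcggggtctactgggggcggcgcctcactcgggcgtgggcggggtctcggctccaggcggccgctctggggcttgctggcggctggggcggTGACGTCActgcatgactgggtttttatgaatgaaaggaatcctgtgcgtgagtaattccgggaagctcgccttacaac
Nr4a3, chr4:48045055-48045354: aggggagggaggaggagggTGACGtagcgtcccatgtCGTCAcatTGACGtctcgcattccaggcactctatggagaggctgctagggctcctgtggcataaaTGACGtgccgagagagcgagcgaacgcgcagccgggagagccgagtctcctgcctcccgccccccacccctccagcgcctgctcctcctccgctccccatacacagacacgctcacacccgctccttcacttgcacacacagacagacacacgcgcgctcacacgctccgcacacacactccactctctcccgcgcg
Per1, chr11:69098699-69098998: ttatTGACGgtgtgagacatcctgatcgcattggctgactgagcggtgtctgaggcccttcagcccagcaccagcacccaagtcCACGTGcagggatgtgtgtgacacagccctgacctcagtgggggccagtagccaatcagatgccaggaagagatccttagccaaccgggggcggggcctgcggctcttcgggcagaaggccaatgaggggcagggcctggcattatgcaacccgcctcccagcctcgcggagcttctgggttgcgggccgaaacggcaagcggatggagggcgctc
Il6, chr5:30012864-30013163: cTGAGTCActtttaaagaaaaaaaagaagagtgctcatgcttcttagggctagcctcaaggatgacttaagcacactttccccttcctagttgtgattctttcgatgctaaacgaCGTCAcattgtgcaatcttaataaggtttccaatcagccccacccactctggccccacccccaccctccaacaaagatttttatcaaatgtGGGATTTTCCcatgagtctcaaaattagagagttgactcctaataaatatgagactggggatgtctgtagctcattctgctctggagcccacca
The Maff window, the second of 3 that RefSeq gives for the gene, holds a full cAMP response element 29 bases before the start and an E-box 191 bases before it. The Nr4a3 window holds 4 cores, 231, 213, 205 and 147 bases before the start. The Per1 window, the first of 2, holds a core 246 and an E-box 166 bases before the start, and the Il6 window an AP-1 site, a core and an NF-kB site 249, 135 and 44 bases before it. Windows were found for 82 of the 94 genes that fell, 56 of the 68 that rose and 12920 of all tested genes. The core TGACG stood in 48.7% of the 117 windows of genes that fell, in 26% of the 73 windows of genes that rose and in 28% of the 16488 windows of all tested genes. The full site TGACGTCA stood in 5.13% of the windows of genes that fell, those of Ccnl1, Dusp8, Golph3, Maff and Ppp2r2d, and in 2.68% of all windows. The NF-kB site was found in 16.2%, 9.59% and 8.29% of the windows of genes that fell, genes that rose and all tested genes, and the E-box in 11.1%, 6.85% and 9.03%. The median GC content of these windows was 62.3%, 57% and 59.7% in the same order. A match of letters is a description and not a binding site.

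Of genes induced by glucocorticoids, the adrenal stress hormones, 7 of 29 tested (24.1%) fell, against 0.507% of all tested genes. Of the 29, 24 had a negative log2 fold change, while 51.5% of all tested genes had a positive one. The median of the list was -0.50. Per1 belongs to this list and to the clock, in which its protein represses CLOCK and BMAL1. It had 228, 212 and 270 CPM at 0.5 h, against 608, 625 and 556 CPM in untreated meninges. Every 0.5 h library held less than the lowest untreated one, and Per1 fell by 1.33 on the log2 scale (SE 0.11, adjusted p = 0.0015). Arrdc2, an arrestin-domain protein that directs membrane proteins to degradation, had 26.4, 23.1 and 23.8 CPM at 0.5 h and 55.9, 49.9 and 50.4 CPM in untreated meninges (log2 fold change -1.09, SE 0.13, adjusted p = 0.00432). The Per1 and Arrdc2 calls survived each left-out library. Cdkn1a, the cell cycle inhibitor p21, had 94.2, 93 and 107 CPM at 0.5 h, against 217, 238 and 246 CPM in untreated meninges (log2 fold change -1.25, SE 0.19). Its call was lost when any 1 of the 6 libraries was left out. The transcription factor Cebpd (-1.18), the metal-binding Mt1 (-1.09), the kinase Sgk1 (-0.73) and the kinase Map3k6 (-0.71) fell too, with adjusted p between 0.0269 and 0.0405. With 1 library left out, 2 to 8 members of the list passed. Tsc22d3 and Fkbp5, well-known targets of the glucocorticoid receptor, did not separate: Tsc22d3 had 719, 700 and 668 CPM at 0.5 h and 861, 844 and 641 CPM in untreated meninges, and Fkbp5 had 117, 97.2 and 78.5 CPM against 119, 120 and 86.5 CPM. Their log2 fold changes were -0.17 (SE 0.13) and -0.15 (SE 0.18).

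In the clock, 3 of 10 tested repressors (30%) and 2 of 7 tested output factors (28.6%) fell, against 0.507% of all tested genes. None of the 11 tested activators and ROR/REV-ERB genes passed, with 5 at an unadjusted p under 0.05 and 1 called by DESeq2 and 0 by limma-voom. Cry2, the partner of the PER proteins, had 62.7, 57.8 and 60.7 CPM at 0.5 h, against 117, 104 and 113 CPM in untreated meninges (log2 fold change -0.88, SE 0.11, adjusted p = 0.00725). Nfil3, a repressor of genes driven by D-boxes, had 43.7, 36 and 49.9 CPM at 0.5 h and 95, 91.6 and 91.2 CPM in untreated meninges (log2 fold change -1.1, SE 0.18). The deubiquitinase Usp2 (-1.1, adjusted p = 0.0155) and the repressor Ciart (-1.12, adjusted p = 0.0482) fell with them, Ciart only just. In 4 of the 11 activator and loop genes every 0.5 h library lay below every untreated one, which held for 9.93% of all tested genes. None of the 11 passed. Csnk1d, a kinase that marks PER proteins for degradation, had 159, 160 and 159 CPM at 0.5 h, against 202, 199 and 178 CPM in untreated meninges (log2 fold change -0.28, SE 0.07, adjusted p = 0.124). The groups overlapped in Per2, Dbp and Arntl. Per2 had 20.4, 15.7 and 14.5 CPM at 0.5 h and 14.8, 16.9 and 17.8 CPM in untreated meninges, and Dbp had 9.86, 14.6 and 21.9 CPM at 0.5 h and 11.7, 16 and 15.4 CPM in untreated meninges. Their log2 fold changes were 0.03 (SE 0.22) and 0.11 (SE 0.37), and that of the activator Arntl was -0.15 (SE 0.17).

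Of the inflammatory and feedback genes, few passed, and those that did were lower. The cytokine Il6 had the largest negative fold change of the genes that met the rule for naming, at a low level: 0.233, 0.202 and 0.337 CPM at 0.5 h, against 2.27, 3.2 and 4.08 CPM in untreated meninges, which are 4, 3 and 6 counts against 34, 54 and 69. The log2 fold change was -3.58 (SE 0.58, adjusted p = 0.0192), and the call was lost when any 1 of the 6 libraries was left out (adjusted p up to 0.124) and under DESeq2. Socs3, which blocks signalling by the IL-6 receptor, had 20.9, 26.6 and 21.3 CPM at 0.5 h and 50.7, 62.4 and 91.7 CPM in untreated meninges (log2 fold change -1.58, SE 0.25). Together with the kinase gene Pim3 (-0.77), 3 of 26 tested genes (11.5%) of the IL-6 family and SOCS list fell, with a median of -0.07. Of 28 tested NF-kB feedback and inflammatory genes, 4 fell (14.3%, against 0.507% of all tested genes) and the median was -0.22. Zc3h12a, a nuclease that degrades inflammatory mRNAs, had 9.74, 7.53 and 9.43 CPM at 0.5 h and 26, 18 and 21.6 CPM in untreated meninges (log2 fold change -1.29, SE 0.18, adjusted p = 0.0102). Tnfaip3, the ubiquitin-editing enzyme A20, had 18.8, 21.1 and 24 CPM at 0.5 h and 40, 40.3 and 44.4 CPM in untreated meninges (log2 fold change -0.96, SE 0.14, adjusted p = 0.0131). The NF-kB inhibitor Nfkbia (-0.7) and the NF-kB subunit Rel (-0.68) were the others. No member of either list passed without 0.5 h replicate 1 or without 0.5 h replicate 2, and none of the IL-6 and SOCS list without untreated replicate 2. None of 29 chemokine ligand genes passed, with 7 at an unadjusted p under 0.05 and 1 called by each of DESeq2 and limma-voom.

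**Figure D2:**
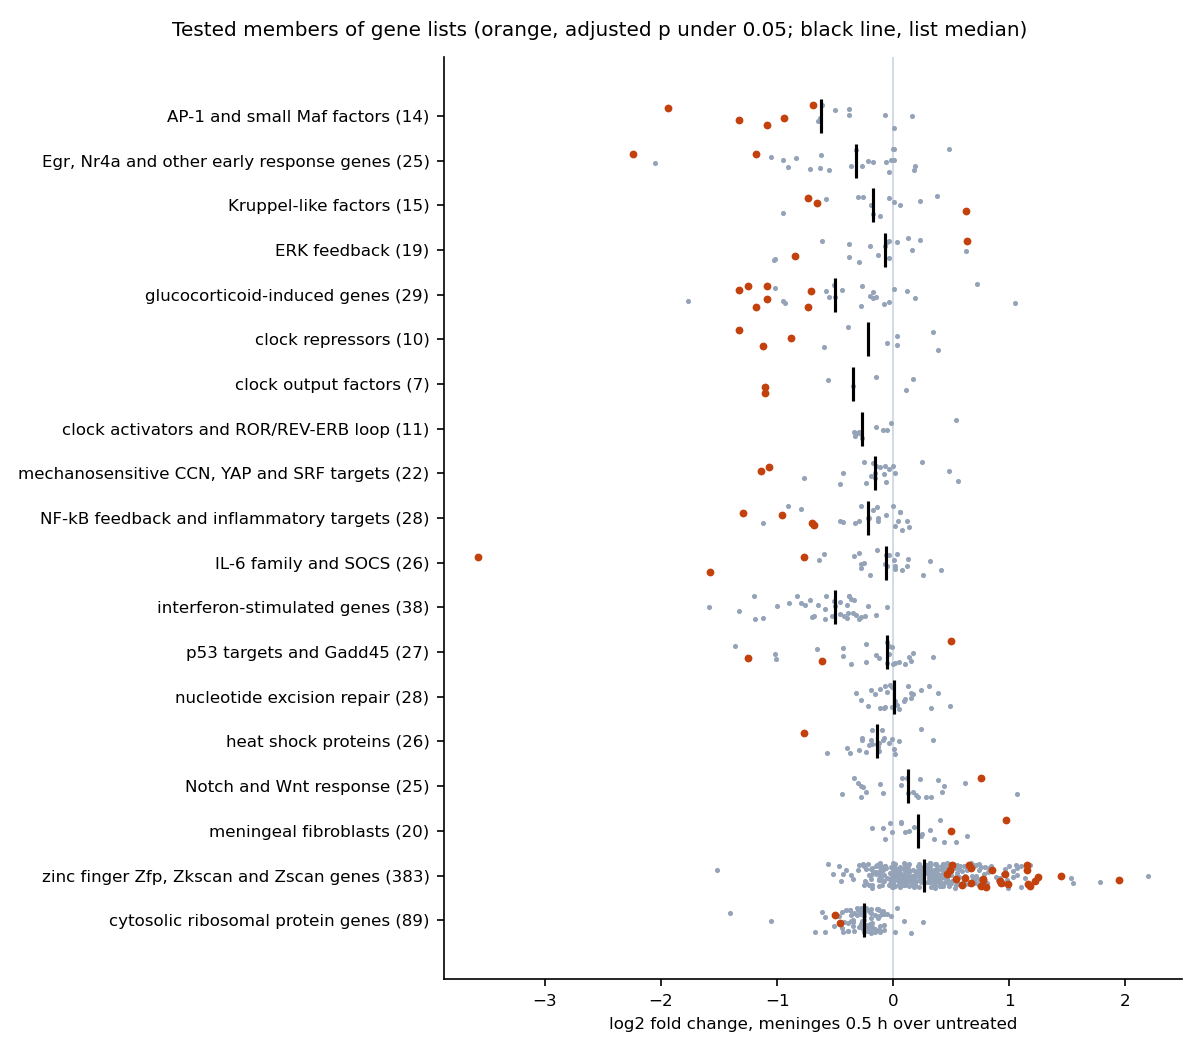
Log2 fold change (horizontal axis, 0.5 h over untreated meninges) of each tested member of 19 gene lists, with the number tested in brackets, orange points for members with an adjusted p under 0.05 and a black line at the list median. Most orange points of the upper lists lie left of 0, and the 26 of the zinc finger list lie right of it.

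Other lists held 1 or 2 members that fell, among them several of the most stable calls. Ccn2, the matricellular protein CTGF and a target of YAP and mechanical strain, had 378, 388 and 348 CPM at 0.5 h, against 824, 752 and 882 CPM in untreated meninges (log2 fold change -1.14, SE 0.11, adjusted p = 0.00184). Tiparp, an ADP-ribosyltransferase and target of the aryl hydrocarbon receptor, had 40.4, 37.5 and 44.2 CPM at 0.5 h and 90.5, 96.7 and 85.3 CPM in untreated meninges (log2 fold change -1.16, SE 0.11, adjusted p = 0.00178). Klf13, a Kruppel-like transcription factor, had 154, 146 and 140 CPM at 0.5 h and 253, 236 and 242 CPM in untreated meninges (log2 fold change -0.73, SE 0.07, adjusted p = 0.00178). All 3 calls survived each left-out library, as did those of Chka, the first enzyme of phosphatidylcholine synthesis (-1.08), and Mideas, a component of a histone deacetylase complex (-1.04). Klf4 fell (-0.66) while Klf5 rose (0.63), and the ERK phosphatase Dusp6 rose (0.64) while the stress kinase phosphatase Dusp8 fell (-0.85). Smim3, the lipid kinase Sphk1 and the transcriptional coregulator Ifrd1, in no list and named after their values were seen, were among the 9 genes with the smallest p. All 3 calls survived. Sphk1 had 35.9, 30.2 and 37 CPM at 0.5 h, against 65, 69.3 and 74.9 CPM in untreated meninges (log2 fold change -1.02, SE 0.1, adjusted p = 0.00184). Among the largest decreases by size were also Apol8 (-2.19), Klrg2 (-1.67), the lymphocyte adaptor Cytip (-1.24) and the membrane protein Tmcc3 (-1.24). Their groups lay apart, which the rule for naming by size required. With a library left out, the calls of Klrg2 and Tmcc3 were each lost in 7 of 9 fits, that of Apol8 in 4 and that of Cytip in 2. Cytip had 10.8, 10.5 and 11.8 CPM at 0.5 h, against 26.4, 28.2 and 23.6 CPM in untreated meninges (SE 0.16, adjusted p = 0.00725).

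Genes of the response to UVB damage and to heat or light mostly did not pass the test. Of 28 nucleotide excision repair genes tested, none passed (4 at an unadjusted p under 0.05, 1 called by each of DESeq2 and limma-voom), with a median log2 fold change of 0.01. The damage sensors Xpc and Ddb2 had overlapping groups, with log2 fold changes of 0.09 (SE 0.11) and 0.10 (SE 0.15). Of 27 p53 targets and Gadd45 genes, 2 fell, Cdkn1a and the stress regulator Sesn1 (-0.61, SE 0.08, adjusted p = 0.00725), and 1 rose, Rrm2b, which supplies deoxynucleotides for repair. These were 7.41% and 3.7% of the list, and the shares over all tested genes were 0.507% and 0.367%. Rrm2b had 38, 38.3 and 39.9 CPM at 0.5 h and 28.9, 26.2 and 27.1 CPM in untreated meninges (log2 fold change 0.5, SE 0.1, adjusted p = 0.0472), a call lost in 8 of 9 fits with a library left out. Mdm2, a p53 target, had a log2 fold change of -0.12 (SE 0.08). Polh, the polymerase that copies past UV lesions, was in no list and was named after its values were seen. It had 14.9, 20 and 14.9 CPM at 0.5 h, against 7.61, 9.67 and 9.46 CPM in untreated meninges (log2 fold change 0.89, SE 0.17, adjusted p = 0.0354). Among 14 tested opsins and heat or light gated channels none passed (1 at an unadjusted p under 0.05, 0 called by DESeq2 or limma-voom). Of 26 heat shock genes, the chaperone Dnajb1 fell (-0.77, adjusted p = 0.0122), and of 22 genes of endoplasmic reticulum stress, the transcription factor Atf4 fell (-0.62, adjusted p = 0.00551).

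Outside the zinc finger genes, and beside Klf5, Dusp6 and Rrm2b above, the lists held few genes that rose: 2 of 20 meningeal fibroblast markers, and 1 each of 25 Notch and Wnt genes (median 0.13), 15 retinoid genes (median 0.15), 28 prostaglandin and leukotriene genes (median 0.10) and 20 chemokine receptors (median 0.09). The share that rose over all tested genes was 0.367%. Foxc2, a forkhead factor of the mesenchyme around brain and vessels, had 94.6, 105 and 87 CPM at 0.5 h, against 49.8, 52.4 and 44.3 CPM in untreated meninges. The groups lay apart, with a log2 fold change of 0.97 (SE 0.09, adjusted p = 0.00178) that survived each left-out library. Zic4, the neighbour of Zic1 in the genome, rose by 0.50 (SE 0.08, adjusted p = 0.0192). These 2 were the members of the 20 meningeal fibroblast markers that passed. Of the 20, 15 were positive, against 51.5% of all tested genes. The median of the markers was 0.21 and the collagen gene Col1a1 was at -0.18 (SE 0.29). Jag1, a Notch ligand, had 114, 130 and 105 CPM at 0.5 h and 70.6, 68.9 and 67.7 CPM in untreated meninges (log2 fold change 0.76, SE 0.09, adjusted p = 0.00432), and its call too survived each left-out library. Wnt9a, a secreted Wnt ligand, had 55.4, 60.3 and 81.5 CPM at 0.5 h, against 32.7, 38.1 and 34.6 CPM in untreated meninges (log2 fold change 0.90, SE 0.14, adjusted p = 0.0177). The receptor Fzd7 rose by 0.60 (SE 0.12) and Osr1, a zinc finger factor of connective tissue, by 0.98 (SE 0.14). Wnt9a, Fzd7 and Osr1 were picked once their values were known. The retinoic acid receptor Rarg rose by 0.45 (SE 0.08, adjusted p = 0.031). Among receptors, Ptgdr, which binds prostaglandin D2, had 25, 25.7 and 19.5 CPM at 0.5 h and 9.75, 9.13 and 10.7 CPM in untreated meninges (log2 fold change 1.24, SE 0.15, adjusted p = 0.00597). Cxcr6, a chemokine receptor of T cells and innate lymphocytes, had 6.36, 5.04 and 3.82 CPM at 0.5 h and 1.54, 1.54 and 2.01 CPM in untreated meninges (log2 fold change 1.57, SE 0.27, adjusted p = 0.0268), with its call lost in 5 of 9 fits with a library left out. Of 10 tested markers of T and NK cells none passed, with 9 of 10 negative (2 at an unadjusted p under 0.05, 1 called by DESeq2, 0 by limma-voom).

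Zinc finger genes named Zfp, Zkscan or Zscan, many of which encode DNA-binding repressors, made up 26 of the 68 genes that rose, or 38.2%, against 2.07% of all tested genes. This list too was chosen with earlier results of these data known. The 26 were 6.79% of the 383 tested. Of the 383, 310 (79.9%) had a positive log2 fold change, against 51.5% of all tested genes, and the median was 0.27. In 156 of them (40.7%) every 0.5 h library lay above every untreated one, which held for 10.8% of all tested genes, and in 12 the order was the reverse. Zfp780b was the only one of the 26 whose call survived. It had 14.7, 13.4 and 14.2 CPM at 0.5 h, against 6.35, 6.29 and 6.32 CPM in untreated meninges (log2 fold change 1.16, SE 0.13, adjusted p = 0.00379). Zfp790 had 15.5, 18.1 and 15.4 CPM at 0.5 h and 7.08, 8.6 and 6.44 CPM in untreated meninges (log2 fold change 1.15, SE 0.16, adjusted p = 0.0102). The largest change was that of Zfp712, at 4.73, 3.83 and 3.99 CPM at 0.5 h and 1.54, 0.593 and 1.12 CPM in untreated meninges (log2 fold change 1.95, SE 0.34, adjusted p = 0.0268). Of the 26, 9 lie on chromosome 7, which holds 91 of the 383 tested, and 8 on chromosome 13, which holds 40. Such genes stand in clusters of similar copies, and how the counting split reads between copies is not given in the sources used here. The number of calls was fragile, with 1 left without 0.5 h replicate 1 or without 0.5 h replicate 2, 3, 6 and 8 without untreated replicates 1, 2 and 3, and 12 without 0.5 h replicate 3. The median moved little, from 0.24 to 0.29 over the fits with a library left out, and to 0.25 after a correction for GC content and length.

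**Figure D3:**
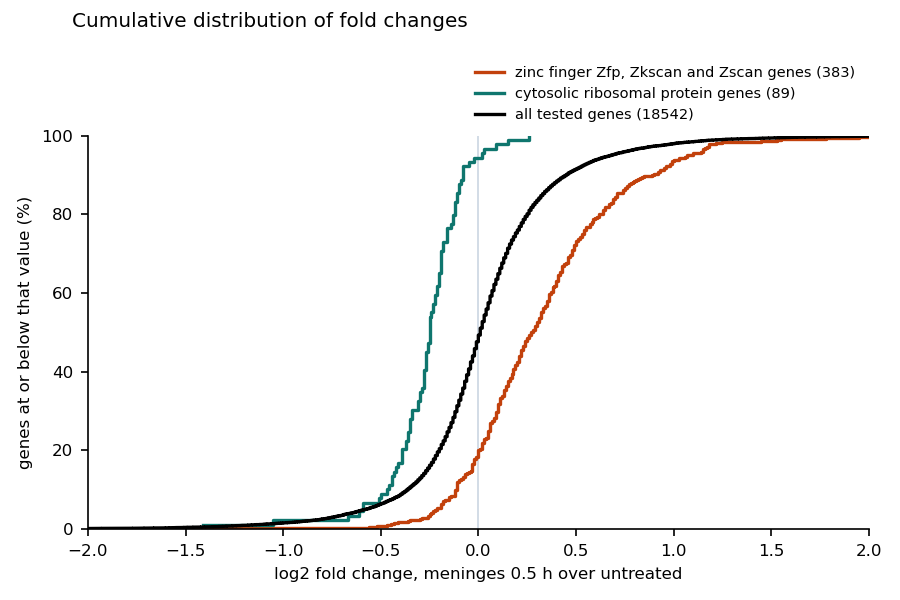
Share of genes (vertical axis, percent) at or below each log2 fold change (horizontal axis, 0.5 h over untreated meninges, shown from -2 to 2) for 383 zinc finger genes (orange), 89 cytosolic ribosomal protein genes (green) and all 18542 tested genes (black). The zinc finger curve lies right of the black one, with a median of 0.27, and the ribosomal curve left of it, with a median of -0.25.

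Of 89 tested cytosolic ribosomal protein genes, 2 fell (2.25%, against 0.507% of all tested genes). A negative log2 fold change was found in 84, while 51.5% of all tested genes had a positive one, and the median was -0.25. In 57 (64%) every 0.5 h library lay below every untreated one, which held for 9.93% of all tested genes. The median of the list was -0.30 in skull and -0.22 in brain. The summed level of the 89 genes was 10169, 10324 and 9616 CPM at 0.5 h and 10856, 11074 and 12394 CPM in untreated meninges, so the groups did not overlap. Only Rpl34 and Rpl10a passed (-0.46 and -0.50 on the log2 scale), and neither call survived leaving out any of the 6 libraries. Reads of these genes can be shared with processed pseudogenes. The 4437 tested genes with the shortest transcripts had a median of -0.05, and after a correction for GC content and length the ribosomal median was -0.17. Of 28 tested SR proteins and hnRNPs, which guide splicing, none passed (6 at an unadjusted p under 0.05, 1 called by DESeq2 and 0 by limma-voom), with a median of -0.09. Outside the lists, and named after their values were seen, the splicing factor U2af1 fell (-0.51, SE 0.10, adjusted p = 0.0361) and 2 nuclear genes rose, Rbm5 (211, 212 and 212 CPM at 0.5 h, against 141, 153 and 140 CPM in untreated meninges, log2 fold change 0.55, SE 0.07, adjusted p = 0.00725) and Ppp1r10, a subunit of nuclear phosphatase 1 (0.56, SE 0.08).

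Interferon-stimulated genes, the antiviral genes switched on by interferons, were negative in all 38 tested, with a median of -0.50, while 51.5% of all tested genes were positive. Yet none of the 38 passed the edgeR test, none had an unadjusted p under 0.05, and DESeq2 and limma-voom called 0. Their summed level was 1158, 1156 and 2392 CPM in the 0.5 h libraries and 2181, 969 and 3882 CPM in the untreated ones. Untreated replicate 2 was the lowest of the 6, so the groups overlapped. Irf7, their chief inducer, had 30.9, 28.8 and 87.5 CPM at 0.5 h and 120, 23.6 and 301 CPM in untreated meninges. The sums varied in other groups as well, with 719, 832 and 2276 CPM in skull at 0.5 h, against 1691, 3662 and 2612 CPM in untreated skull. The 11 genes of MHC class I presentation summed to 2017, 2096 and 2270 CPM at 0.5 h and 3731, 2259 and 4722 CPM in untreated meninges, again overlapping, with 0 called by edgeR, DESeq2 or limma-voom and 2 at an unadjusted p under 0.05.

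**Figure D4:**
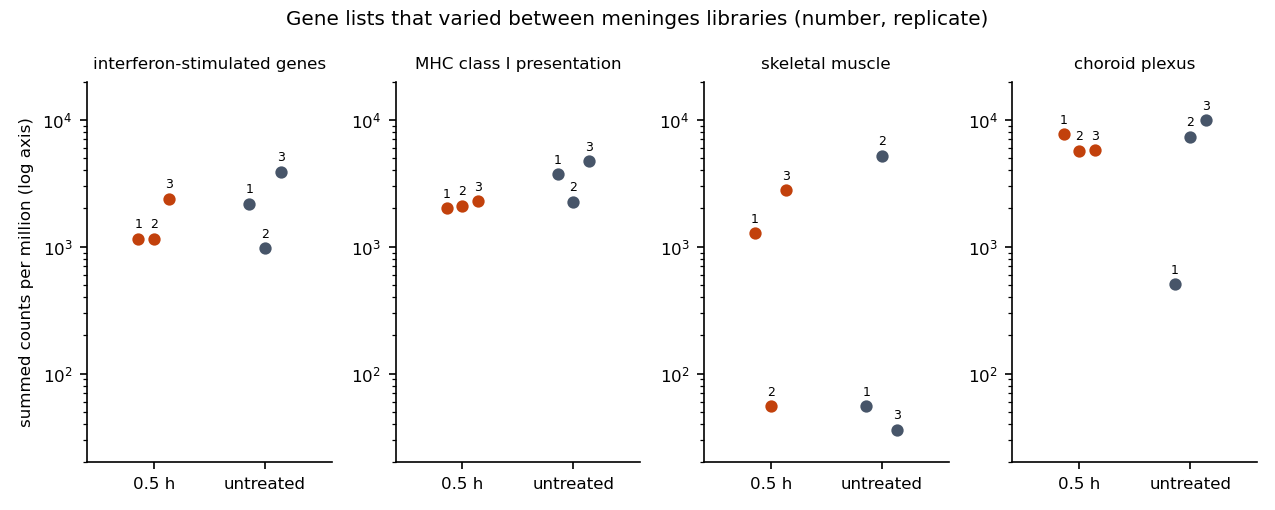
Summed CPM (vertical log axis) of 4 gene lists in the 3 meninges libraries at 0.5 h (orange, left) and the 3 untreated ones (grey, right), with the replicate number above each point. The groups overlap in all 4 panels, muscle genes are high in 3 of the 6 libraries and choroid plexus genes are low in untreated replicate 1.

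Of 24 lists of cell type markers, 22 had no member past the test, among them border-associated macrophages (0 of 10, 0 at an unadjusted p under 0.05), microglia (0 of 10, 2 unadjusted), neutrophils (0 of 13, 0 unadjusted) and endothelium (0 of 11, 0 unadjusted); DESeq2 and limma-voom each called 1 of the microglia genes and 0 of the other 3 lists. Neutrophil genes summed to 606, 381 and 196 CPM at 0.5 h and 307, 229 and 745 CPM in untreated meninges. Beside the fibroblast genes above, the exception was Hdc, the enzyme that makes histamine, in the mast cell list. Hdc had 17.9, 13 and 12.5 CPM at 0.5 h, against 31.1, 26.3 and 30.1 CPM in untreated meninges (log2 fold change -1.01, SE 0.18, adjusted p = 0.0268). Yet 8 of the 10 tested mast cell genes were positive, against 51.5% of all tested genes.

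The meninges were then set beside the skull and the brain of mice of the same times, whose libraries are separate. The labels do not say whether tissues with the same number came from the same mouse. At 0.5 h 854 genes of 17426 (4.9%) were called in skull and 1 of 18172 (0.0055%) in brain. Of the 94 genes that fell in meninges, 93 were negative in skull and 67 were called lower there, against 2.94% of all genes tested in skull, and their median log2 fold change was -0.76 in meninges and -0.69 in skull. Of the 68 that rose, 67 were tested in skull, 66 were positive and 37 were called higher, against 1.96% of all genes tested in skull, with medians of 0.75 in meninges and 0.60 in skull. The 104 genes called alike in both were 64.2% of the calls in meninges and 12.2% of those in skull. The meninges values are those by which the genes were chosen, so their size is not comparable on equal terms. The meninges libraries also held bone transcripts, with Bglap at 475 to 744 CPM against 698 to 1488 CPM in skull. The part of shared bone tissue in the overlap was not tested. In brain 84 of 88 tested genes of those that fell were negative (median -0.28), against 50.4% of all genes tested there. Of those that rose, 57 of 64 were positive in brain (median 0.17), against 49.6% of all genes. Of all genes tested in skull, 49.9% were negative and 50.1% positive. Per1 was the single gene called in all 3 tissues, with log2 fold changes of -1.33 in meninges, -1.56 in skull and -0.66 in brain (adjusted p = 0.00439 in brain). Maff stood at -1.94, -2.11 and -1.62 in the same order, and the brain value did not pass (adjusted p = 0.385). Of the zinc finger genes called in meninges, 17 of 26 were called higher in skull, and all 26 were positive there. In brain 25 of the 26 were positive. Over all zinc finger genes tested in each tissue, the median was 0.27 in meninges, 0.26 in skull and 0.12 in brain.

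**Figure D5:**
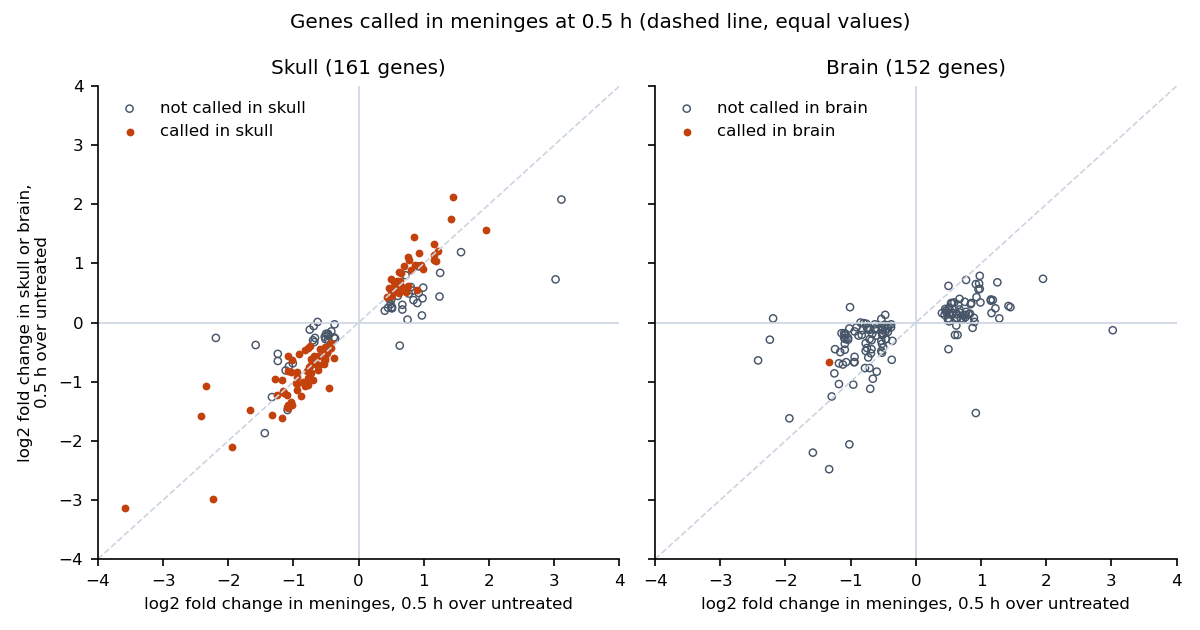
Log2 fold change at 0.5 h over untreated in skull (left) and brain (right) against that in meninges for the genes called in meninges, 161 of which were tested in skull and 152 in brain, with filled points for genes called in the second tissue. Skull points lie near the dashed line of equal values and brain points closer to 0.

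Few genes passed a test of the difference itself between tissues, which rests on 3 libraries per group. Of the 162 genes called in meninges, 91 had an unadjusted p under 0.05 for the difference from brain and 21 for that from skull. Those genes were chosen by their meninges values, which also enter the difference. Meninges and brain differed in 2 of 21500 genes (0.0093%), 1 with the higher and 1 with the lower effect in meninges (0.00465% each), and 1327 (6.17%) had an unadjusted p under 0.05. Klf13 fell in meninges and had 229, 228 and 210 CPM at 0.5 h and 244, 238 and 245 CPM in untreated brain, and the difference of the effects was -0.62 (SE 0.10, adjusted p = 0.036). Lncppara, a long noncoding RNA, had 22.3, 20.1 and 18.2 CPM at 0.5 h and 14.7, 13.5 and 14.4 CPM in untreated meninges, and 6.49, 7.27 and 8.79 CPM at 0.5 h and 11.3, 10.8 and 11 CPM in untreated brain (difference 1.05, SE 0.17, adjusted p = 0.036). Within a tissue, the effect of Klf13 passed in meninges only and that of Lncppara in neither. No gene passed without any 1 of the untreated meninges libraries, 0.5 h meninges replicate 1 or 2, untreated brain replicate 3 or 0.5 h brain replicate 2. Without untreated brain replicate 2 or 0.5 h brain replicate 1, 1 gene passed, which was neither Klf13 nor Lncppara. Meninges and skull differed in 2 genes (0.0093%), with 1254 (5.83%) at an unadjusted p under 0.05. In both, the effect passed within skull (-2.29 for Nfatc2 and -0.79 for Ets2) and not within meninges (-0.39 and 0.04). Nfatc2, a calcium-regulated factor of lymphocytes and bone cells, had 22.6, 22.2 and 24.4 CPM at 0.5 h and 32.3, 29.1 and 29.3 CPM in untreated meninges, and 23.2, 20.2 and 20.7 CPM at 0.5 h and 85.1, 79.4 and 149 CPM in untreated skull (difference 1.88, SE 0.25, adjusted p = 0.00201). Ets2, a factor downstream of Ras, had 81.8, 86.1 and 82.6 CPM at 0.5 h and 79.8, 86.7 and 77.8 CPM in untreated meninges, and 62.2, 59.6 and 67 CPM at 0.5 h and 109, 107 and 109 CPM in untreated skull (difference 0.80, SE 0.13, adjusted p = 0.0292). Foxc2, which rose in meninges, had a log2 fold change of 0.12 (adjusted p = 0.79) in skull, and the difference did not pass (0.83, SE 0.32, adjusted p = 0.775).

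The 24 h meninges libraries share the untreated libraries with the 0.5 h ones, so their fold changes are not independent of those above and are given only side by side. At 24 h 1561 of 18542 genes (8.42%) were called against untreated meninges, 736 (3.97%) higher and 825 (4.45%) lower. At 0.5 h and 24 h the log2 fold changes over untreated meninges were -1.94 and -2.44 for Maff, -1.33 and -1.63 for Per1, -1.14 and -1.42 for Ccn2 and 1.16 and 1.33 for Zfp780b. Those of Foxc2 were 0.97 and 0.47, those of Wnt9a 0.90 and -0.07, those of Il6 -3.58 and -1.6, and those of Ciart -1.12 and 0.19. The difference between the times was not tested.

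On GRCm38 (GENCODE M21), Maff lies at chr15:79346621-79359076, Per1 at chr11:69095217-69109960, Ccn2 at chr10:24595442-24598683, Foxc2 at chr8:121116171-121118895, Jag1 at chr2:137081456-137116644 and Zfp780b at chr7:27959135-27979171. Exons of several named genes overlap those of a gene on the opposite strand, and the strand setting of the counting is not known: Ptgdr shares 705 bases with Gm16976, Ccn2 665 with Gm15270, Cebpd 562 with Spidr, Zic4 468 at most with Gm37477 or Zic1, Cry2 295 with D930015M05Rik, Jun 232 with Junos and Tiparp 223 with 4931440P22Rik. Reads over those bases may belong to either gene.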

How the data were processed

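Messenger RNA of 27 mouse libraries was analysed, 3 in each of 9 groups by the labels. The deposited values are raw counts per gene symbol, per the file headers; HISAT2 2.1.0 and mm10 were used, per the submitters' processing notes, while the counter, annotation and strandedness are not stated in those sources. GENCODE M21 matched 33404 of 37095 symbols (90%). The 9 meninges libraries were fitted together with edgeR 4.0.16 (R 4.3.3, TMM scaling, filterByExpr with a minimum count of 10 and a minimum total of 15, robust quasi-likelihood F test, Benjamini-Hochberg, threshold 0.05). Differences between tissues were contrasts of a fit to all 27 libraries. CPM of single genes use TMM-scaled totals, sums of lists plain totals, and each SE divides the absolute log2 fold change by the root of F. Library depth limits the precision of genes with few counts most. Alternatives included DESeq2 1.42.0, limma-voom 3.58.1, a replicate block, and each library left out. Named by size were the 12 largest called changes in each direction with a mean of at least 1 CPM, an established symbol and groups apart. Called gene models without such a symbol were left out, among them Gm28719 (log2 fold change 3.11), Gm38220 (-2.42) and Gm15684 (-2.34). Also named were up to 6 called members of each list, up to 2 of a list with none, and 6 per tissue difference. Others are said to be chosen after their values were seen, or stand as list members that did not separate (Tsc22d3, Fkbp5, Per2, Dbp, Arntl, Xpc, Ddb2, Mdm2, Col1a1, Irf7), also chosen so. Members and lists were chosen with earlier results of these data known. In data simulated with the means and spread of the 9 meninges libraries, 18220 genes were tested. The fit called 52% of 2-fold and 84% of 4-fold changes, and 8.7% of its calls were unchanged genes, more than the threshold of 0.05 aims at. Each gene was simulated on its own, without shifts shared by many genes of a library, so these rates need not hold for the real libraries.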

Additional observations from a re-analysis of the deposited data

Results flagged for a closer look

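The effect at 0.5 h differed between tissues by a test of the difference itself in 4 genes. Klf13 had a difference of -0.62 between meninges and brain on the log2 scale and Lncppara one of 1.05. Nfatc2 had a difference of 1.88 between meninges and skull and Ets2 one of 0.80. Groups of 3 libraries are too small for a check for outlying samples.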

How the results depend on the processing

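The 162 calls became 511 with DESeq2, 295 with limma-voom, 371 with all 27 libraries in one fit and 261 with no filter on low counts; 154, 152, 143 and 163 with RLE scaling, TMM scaling that left haemoglobin and mitochondrial genes out, the 2 groups alone and the GC and length correction; and 17 to 172 with 1 library left out. The 2 genes that differed from brain became 48 with DESeq2, 1 with RLE scaling, 0 with no filter and 0 to 5 with a library left out, and the 2 that differed from skull became 23 with DESeq2 and 1 to 5 with a library left out. The cause was not tested. Replicate numbers did not pair the 0.5 h and untreated meninges libraries. Same-numbered ones deviated together with r of -0.029, -0.167 and 0.153, and only those numbered 3 correlated best with their own number. Untreated meninges and untreated brain libraries did correlate best with their own number, though weakly (r of 0.065, 0.066 and 0.02). That did not hold for all 3 numbers between meninges and skull, or between meninges and brain at 0.5 h. With the number as a replicate block 67 genes were called (67 also with the GC and length correction), all 67 among the 162 in the block alone. The block left 0 genes for the difference from brain and 1 for that from skull. Of 72 named genes that passed, none changed sign under any alternative run. A change of sign was hardly possible in them, as the groups of every called gene lay apart. Without 0.5 h replicate 2, 59 of the 72 no longer passed. Of 82 that did not pass, 9 changed sign when a library was left out. Their log2 fold changes then ran from -0.41 to 0.06 for Otx2, -0.01 to 0.08 for Aqp1, -0.35 to 0.10 for Acp5, -1.13 to 2.23 for Actn3, -1.67 to 5.07 for Myh1, -0.45 to 0.10 for Csf3r, -0.42 to 0.03 for Retnlg, -0.04 to 0.28 for Fos and -0.16 to 0.34 for Egr1. With limma-voom Aqp1 (-0.01) and Myh1 (0.32) changed sign, and in the replicate block Actn3 (0.36, and 0.35 with the GC and length correction) and Myh1 (1.39 and 1.34) did.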
